A study of Mus musculus with 15 samples.

Results

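The ATG8 family genes are the mouse genes for the ubiquitin-like proteins that are attached to the membrane of the forming autophagosome. Members were chosen by name, as the LC3 genes Map1lc3a and Map1lc3b and the GABARAP genes Gabarap, Gabarapl1 and Gabarapl2. They are 5 of the 24982 genes in the count tables, and all 5 passed the filter on low counts, which left 15696 tested genes. RNA-seq counts were made from cells labelled as the mouse embryonic stem cell line E14TG2 on their way to epiblast-like cells (EpiLCs), the in vitro counterpart of the epiblast near implantation. Atg7 KO and control cells were sampled at day 2 and at day 4, and embryonic stem cells (ESCs), which carry the control genotype, at day 0, with 3 libraries in each of the 5 groups. All groups share the cell line and the treatment label, and the labels' protocols describe ESC culture on a layer of inactivated fibroblasts of mouse embryos with LIF and inhibitors of MEK and GSK3, then seeded on fibronectin with activin A and bFGF. How the knockout was made, and from how many clones, is not stated in the labels.

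ATG8 proteins are made as precursors. The protease ATG4 trims the carboxy-terminal tail to expose a glycine, ATG7 activates that glycine as the E1-like enzyme of the system, and ATG3 passes the protein on to the lipid phosphatidylethanolamine, with the ATG12, ATG5 and ATG16L1 complex as helper. LC3 proteins are known for a part in the growth of the phagophore, and GABARAP proteins for a part in the closure and fusion of the autophagosome, while both recruit cargo receptors that carry a short binding motif. ATG7 therefore acts on the proteins of all 5 genes, and what follows is about their mRNA.

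The ends of 4 of the 5 coding sequences are shown, that of Map1lc3b being left out, because they hold the glycine on which ATG7 acts. Each is the last 36 bases of the principal transcript's reading frame, 5′ to 3′, from GENCODE M21 on GRCm38, with the codon of the last glycine in capitals.
Map1lc3a: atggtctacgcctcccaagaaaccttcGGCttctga
Gabarap: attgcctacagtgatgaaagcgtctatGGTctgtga
Gabarapl1: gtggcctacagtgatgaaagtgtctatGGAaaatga
Gabarapl2: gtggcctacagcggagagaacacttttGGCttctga
The glycine is codon 120 of 121 in Map1lc3a and codon 116 of 117 in Gabarap, Gabarapl1 and Gabarapl2. Over the whole coding sequence, Map1lc3a and Map1lc3b were 76.0% identical, and Gabarap and Gabarapl1 were 74.9% identical. Identity between an LC3 and a GABARAP gene lay between 51.4% and 56.1%, so the family divides at the nucleotide level as its names do.

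The genes lie apart on the + strand of GRCm38, and the principal transcript of each has 4 exons. Map1lc3a (ENSMUSG00000027602.9) is at chr2:155276297-155278073 and Gabarap (ENSMUSG00000018567.14) at chr11:69991143-69994951, and neither overlaps an annotated gene. Gabarapl1 (ENSMUSG00000030161.8) is at chr6:129533160-129542346, on the chromosome of Atg7, and 658 of its bases overlap the antisense gene 1700101I11Rik, which had between 0 and 4 counts per library. Its span also overlaps Gm44243 on the same strand, which has no row in the count tables. Map1lc3b (ENSMUSG00000031812.16) is at chr8:121590361-121598760 and shares 58 bases with Zcchc14 on the opposite strand. Its span also overlaps Gm20388, annotated as protein-coding on the same strand, which has no row in the count tables. Gabarapl2 (ENSMUSG00000031950.7) is at chr8:111940703-111953612. Of the 50-base words of the principal transcript, 13.8% in Map1lc3b, 18.6% in Gabarapl1, 17.0% in Gabarapl2 and 0.0% in Map1lc3a and Gabarap also occurred in transcripts of another gene, which for Gabarapl1 was 1700101I11Rik alone. RefSeq names 14 ATG8 pseudogenes, of which 0 have a row in the count tables. How shared reads and strand were treated in counting is not given, so the counts of Map1lc3b, Gabarapl1 and Gabarapl2 carry that uncertainty. RefSeq promoters on GRCm38.p6, from 250 bases before to 50 after the start, were found for 4 of the 5 members, all but Map1lc3a. None of the 4 held, on either strand, the letters CACGTG, the longer TCACGTG that contains it, GTAAACA or TGACGTC, which occurred in 7.15%, 3.77%, 3.65% and 3.21% of all 32851 promoters. The window of Gabarap, chr11:69991120-69991419, lies mostly inside the gene as annotated by GENCODE, so it says little about the bases before that start.

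Libraries held between 14059237 and 23371546 counts, and the members between 261 and 4688 counts in any library. Whether the 3 libraries of each group are separate cultures is not in the labels, so p-values measure the spread between these libraries, which may be technical. Levels are in CPM (counts scaled to a common library total) with TMM factors. Changes are given as log2 fold change ± standard error from 1 edgeR quasi-likelihood model of all 15 libraries, with p adjusted by Benjamini-Hochberg over the 15696 genes and a threshold of 0.05. Atg7 had 7.16 ± 0.349 CPM in KO cells and 13.6 ± 1.27 CPM in control cells at day 2 (SD, n = 3 each). At day 4 it had 11.9 ± 1.28 CPM in KO cells and 19.5 ± 0.379 CPM in control cells. Its change was -0.92 ± 0.109 at day 2 and -0.71 ± 0.106 at day 4, with adjusted p-values of 8.34e-06 and 8.39e-05 by edgeR, so transcripts of the gene remained in the KO libraries. The counts are over the whole gene and do not show which part was deleted. Hprt had between 1.59 and 2.94 CPM in the 12 libraries of days 2 and 4, against 182.6 to 203.4 CPM in the ESC libraries. Lines of the E14TG2 type are known for their lack of HPRT, so the ESC libraries go against their cell line label, and every comparison with them holds that difference. The EpiLC marker Fgf5 had at most 33 counts in any library, and the 8 EpiLC markers summed to 399.1 to 428 CPM in KO cells and 697.5 to 704.1 CPM in control cells at day 2, without overlap. At day 4 their sum was 1168 to 1251 CPM in KO cells and 1204 to 1376 CPM in control cells, with overlap, and in ESCs it was 235.1 to 414.5 CPM. Most of the day 2 difference in the EpiLC sum was Dnmt3l, with means of 95.1 CPM in KO and 306.3 CPM in control cells. Otx2, Zic2 and Fgf5 had higher means in KO than in control cells at day 2, and Fgf5, Dnmt3a, Dnmt3b, Zic2 and Zic5 did at day 4. The 8 naive ESC markers summed to 3583 to 3794 CPM in KO cells and 2891 to 2953 CPM in control cells at day 2, 2864 to 3183 CPM in KO cells and 2018 to 2068 CPM in control cells at day 4, and 5818 to 6177 CPM in ESCs. Most of the day 2 difference was Nanog, with means of 1167 CPM in KO and 534.3 CPM in control cells. Pou5f1, Esrrb and Tbx3 had slightly lower means in KO than in control cells at day 2.

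The sum of fibroblast markers moved with the groups. All 16 fibroblast markers had counts in every group, and none was at 0. Their sum was 604.8 to 1029 CPM in KO and 416.5 to 462.3 CPM in control libraries at day 2, 216.4 to 269.2 CPM in KO and 164.7 to 174 CPM in control libraries at day 4, and 322.5 to 2190 CPM in ESCs. Not every marker followed the sum. Mmp2 had a lower mean in KO than in control cells at day 2, and Thy1, Pdgfrb, Mmp2, Postn and Col6a2 did at day 4. Col1a1, Col1a2 and Col3a1, the genes of the collagen score below, had higher means in KO cells at both days. In bulk RNA, fewer cells of a type and less RNA per cell cannot be told apart. The score of 3 collagen genes was therefore also used as a covariate, and its effect stands beside each result whose sign or call it changed. Since the model also fits a mean per group, the slope of the score rests on differences within groups. The score ran from 5.86 to 8.93 in ESCs, but from 5.41 to 5.69 in control libraries at day 2 and from 2.79 to 3.04 at day 4. That slope thus rests largely on the ESC libraries, and the covariate cannot decide what a fibroblast difference between KO and control cells does. ESC replicate 3 stood apart from its group. Its collagen score was 5.86, against 8.93 and 7.98 in the other ESC libraries, and its counts differed from theirs by a chi-square per degree of freedom of 31.78 and 24.22, where no other pair of libraries within a group exceeded 7. Neural markers summed to 46.5 to 51.3 CPM in KO and 31.5 to 38.6 CPM in control libraries at day 2, and to 117.4 to 120.9 CPM in KO and 90.6 to 97.4 CPM in control libraries at day 4. Endoderm markers summed to 178.2 to 197.4 CPM in KO and 145.5 to 165 CPM in control libraries at day 2, to 393.3 to 437 CPM in KO and 323.6 to 430.8 CPM in control libraries at day 4, and to 26.4 to 48.4 CPM in ESCs. Trophoblast markers summed to 64.6 to 67.8 CPM in KO and 56.6 to 61.3 CPM in control libraries at day 2. At day 4 they summed to 54.8 to 59.1 CPM in KO and 64.9 to 73.7 CPM in control libraries. Their sum in ESCs was 173.4 to 259 CPM. The higher day 2 sum in KO cells came from Tfap2c, with means of 52.5 CPM in KO and 34.3 CPM in control cells. Every other trophoblast marker had a lower mean in KO than in control cells at day 2. Most of the ESC sum was also Tfap2c, with a mean of 194.8 CPM. The part of naive, EpiLC, neural, endoderm and trophoblast marker RNA in the results was not tested.

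**Figure D1:**
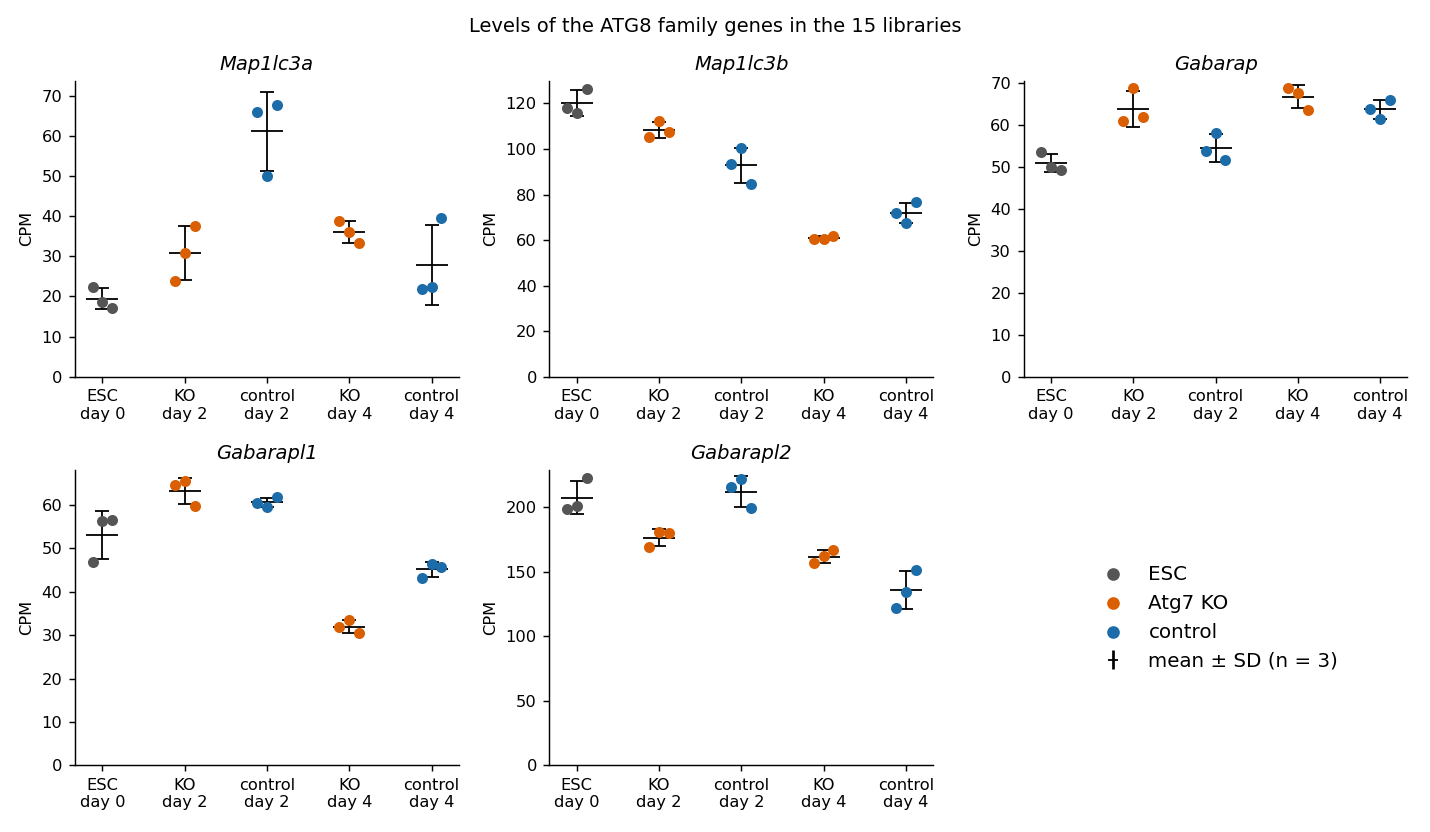
Levels of the 5 ATG8 family genes in CPM, 1 panel per gene and 1 point per library, with bars for the group mean and SD (n = 3). Map1lc3a stands highest in day 2 control cells at 49.9 to 67.7 CPM, and Gabarap stays between 49.2 and 68.7 CPM in all 15 libraries.

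Among the LC3 genes, Map1lc3a, which codes for LC3A, had the widest range of the family. At day 2 it had 23.9, 30.9 and 37.5 CPM in the 3 KO libraries, against 65.9, 49.9 and 67.7 CPM in the 3 control libraries. Every KO library was below every control library. Map1lc3a fell by 0.99 ± 0.195 in KO cells (edgeR, adjusted p = 0.00079). At day 4 it had 38.8, 36.03 and 33.4 CPM in KO libraries and 21.8, 22.4 and 39.5 CPM in control libraries. The third control library was above all KO libraries and the other two were below them, so the groups overlapped. The fold change was 0.37 ± 0.203 with an adjusted p of 0.17 by edgeR and a 95% interval of -0.062 to 0.80. Over 16 alternatives it ran from 0.17 to 0.71, and 15 of them also stayed short of the threshold. The value of 0.71, with an adjusted p of 0.00692 by edgeR, was that without control replicate 3.

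Map1lc3b codes for LC3B, the form most used as a marker of autophagosomes. At day 2 it had 105.2, 112.2 and 107.3 CPM in KO libraries and 93.4, 100.2 and 84.8 CPM in control libraries. The groups did not overlap, and the gene rose by 0.22 ± 0.065 in KO cells (edgeR, adjusted p = 0.012). At day 4 the direction was the opposite, with 60.4, 60.4 and 61.9 CPM in KO libraries against 71.9, 67.4 and 76.5 CPM in control libraries. All KO libraries were below all control libraries, and Map1lc3b fell by 0.24 ± 0.067 (edgeR, adjusted p = 0.00998). Both calls rested on single libraries. The day 2 change was 0.16 without control replicate 3 and 0.20 without KO replicate 2 (edgeR, adjusted p = 0.0736 and 0.0513), and the day 4 change was -0.19 without control replicate 3 (edgeR, adjusted p = 0.0568).

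Among the GABARAP genes, Gabarap, named for the binding of its protein to the GABA type A receptor, had the narrowest range. At day 2 it had 60.8, 68.7 and 61.7 CPM in KO libraries and 53.7, 57.9 and 51.5 CPM in control libraries. The groups did not overlap, and Gabarap rose by 0.23 ± 0.066 in KO cells (edgeR, adjusted p = 0.0111). The call was lost without control replicate 3 at 0.19, without KO replicate 2 at 0.17 and with the collagen score at 0.16 (edgeR, adjusted p = 0.056, 0.0669 and 0.0982). At day 4 it had 68.7, 67.5 and 63.5 CPM in KO libraries and 63.7, 61.3 and 65.8 CPM in control libraries, and these overlapped. The fold change was 0.066 ± 0.067 (edgeR, adjusted p = 0.467; 95% interval -0.076 to 0.21), and with the collagen score it was -0.01.

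Gabarapl1 is a close relative of Gabarap that is also known as GEC1. At day 2 it had 64.6, 65.5 and 59.9 CPM in KO libraries and 60.4, 59.6 and 61.8 CPM in control libraries. The groups overlapped, with a fold change of 0.063 ± 0.072 (edgeR, adjusted p = 0.506; 95% interval -0.089 to 0.22). At day 4 it had 32.0, 33.4 and 30.4 CPM in KO libraries, against 43.2, 46.5 and 45.8 CPM in control libraries. KO libraries were well below control libraries, and Gabarapl1 fell by 0.50 ± 0.076 (edgeR, adjusted p = 9.51e-05). Its chromosome moved little in the same comparison, since the 774 tested genes of chromosome 6 had a median log2 fold change of -0.047.

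Gabarapl2 codes for the protein also known as GATE-16, first described in transport through the Golgi. At day 2 it had 169, 180.6 and 179.7 CPM in KO libraries and 215.7, 221.5 and 198.9 CPM in control libraries. KO libraries were all below control libraries, and Gabarapl2 fell by 0.27 ± 0.071 (edgeR, adjusted p = 0.00703). At day 4 it had 156.8, 161.9 and 166.4 CPM in KO libraries and 121.9, 134.4 and 151.4 CPM in control libraries. Here all KO libraries were above all control libraries, and Gabarapl2 rose by 0.25 ± 0.072 (edgeR, adjusted p = 0.0118). Without control replicate 1 the day 4 value was 0.18 with an adjusted p of 0.0687 by edgeR.

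**Figure D2:**
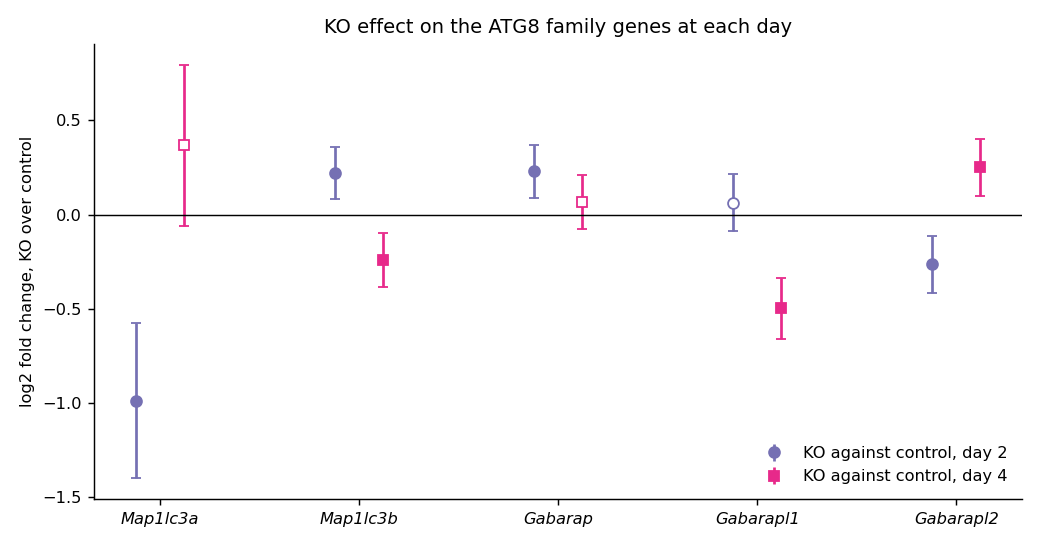
Log2 fold change of Atg7 KO over control cells for each ATG8 family gene at day 2 and day 4, with 95% intervals from the edgeR model; filled markers passed an adjusted p of 0.05 and open ones did not. Map1lc3b is at 0.22 on day 2 and -0.24 on day 4, and Gabarapl2 is at -0.27 and 0.25.

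At day 2, 2 of the 5 genes were higher in KO cells (Map1lc3b and Gabarap) and 2 were lower (Map1lc3a and Gabarapl2), where 20.4% of all tested genes were higher and 21.4% lower. Without control replicate 3 or without KO replicate 2, 2 of the 5 were called. At day 4, 1 was higher (Gabarapl2) and 2 were lower (Map1lc3b and Gabarapl1), against 19.5% and 18.1% of all tested genes. The median log2 fold change of the 5 was 0.063 at day 2 and 0.066 at day 4, and that of all tested genes was -0.015 and -0.011. Neither subfamily moved as a block, since the LC3 genes went in opposite directions at day 2 and the called GABARAP genes did so at both days.

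The effect of the KO differed between the days for 4 of the 5 genes, as tested by the difference of the day 4 and the day 2 effect in the edgeR model. The difference was 1.35 ± 0.281 for Map1lc3a (edgeR, adjusted p = 0.00142) and 0.52 ± 0.101 for Gabarapl2 (edgeR, adjusted p = 0.000928). It was -0.46 ± 0.094 for Map1lc3b (edgeR, adjusted p = 0.00118) and -0.56 ± 0.104 for Gabarapl1 (edgeR, adjusted p = 0.000619). Thus 2 genes had a more positive effect at day 4 and 2 a more negative one, where 18.6% and 17.6% of all tested genes did so. Chromosome 6, which holds Gabarapl1, had a median difference of -0.17, against -0.009 over all tested genes. The part of the chromosome in that gene's value was not tested. Gabarap had a difference of -0.16 ± 0.094 (edgeR, adjusted p = 0.191), and of -0.24 with the stricter filter (edgeR, adjusted p = 0.0449). The 4 calls held in 22 of 22 alternatives each, with the collagen score among them. Map1lc3b and Gabarapl2 passed the test at both days with opposite signs, as did 7.12% of all tested genes, or 1118 of the 2845 genes called at both days. They did so in opposite order, Map1lc3b being higher in KO cells at day 2 and Gabarapl2 at day 4.

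In control cells, 4 of the 5 genes were lower at day 4 than at day 2 and 1 was higher, against 34.6% and 33.9% of all tested genes. Map1lc3a fell by 1.13 ± 0.199, Gabarapl2 by 0.64 ± 0.072, Gabarapl1 by 0.43 ± 0.073 and Map1lc3b by 0.37 ± 0.066 (edgeR, adjusted p = 9.63e-05, 7e-07, 7.77e-05 and 0.000121). Gabarap rose by 0.23 ± 0.067 (edgeR, adjusted p = 0.00679). The fall of Gabarapl1 went against its chromosome, on which the median log2 fold change was 0.39. With the collagen score the change of Gabarap was 0.36.

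In KO cells, 0 genes were higher and 2 were lower at day 4 than at day 2, against 31.2% and 32.0% of all tested genes. Gabarapl1 fell by 0.99 ± 0.075 and Map1lc3b by 0.83 ± 0.067 (edgeR, adjusted p = 1.31e-08 and 2.44e-08). Map1lc3a changed by 0.23 ± 0.199, Gabarap by 0.062 ± 0.066 and Gabarapl2 by -0.13 ± 0.071, and none of these passed the test (edgeR, adjusted p = 0.331, 0.427 and 0.134). With only the KO groups in the fit, Gabarapl2 passed at -0.12 (edgeR, adjusted p = 0.0206).

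**Figure D3:**
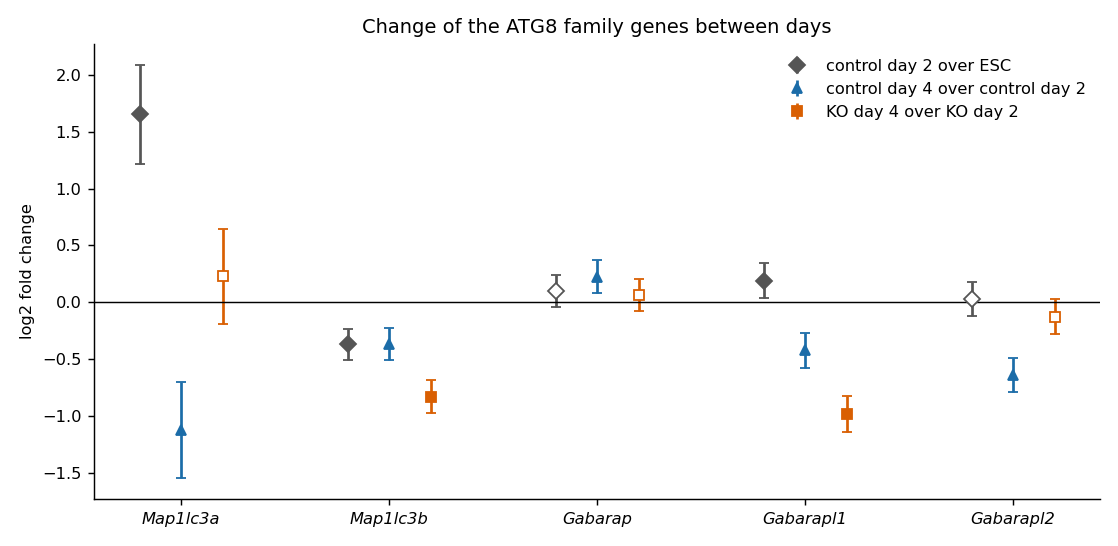
Log2 fold change of each ATG8 family gene between days, with 95% intervals from the edgeR model: control day 2 over ESC, control day 4 over control day 2, and KO day 4 over KO day 2; filled markers passed an adjusted p of 0.05. Map1lc3a is at 1.65 for control day 2 over ESC and at -1.13 for control day 4 over day 2, while Gabarapl1 and Map1lc3b are lowest for KO day 4 over KO day 2, at -0.99 and -0.83.

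The control levels of days 2 and 4 given above were also set against the ESC libraries. Map1lc3a had 22.4, 18.7 and 17.2 CPM in ESCs. Map1lc3b had 118.2, 115.6 and 126.5 CPM there. ESCs thus had the lowest mean level of Map1lc3a and the highest of Map1lc3b among the 5 groups. Gabarap had 53.4, 49.9 and 49.2 CPM in ESCs. Gabarapl1 had 46.8, 56.2 and 56.5 CPM, with the first library below the others, and Gabarapl2 had 198.8, 201.1 and 222.3 CPM. Against these, day 2 control cells had 2 genes higher and 1 lower, where 35.6% and 34.9% of all tested genes were. Map1lc3a rose by 1.65 ± 0.206 and Map1lc3b fell by 0.37 ± 0.065 (edgeR, adjusted p = 2.31e-06 and 8.68e-05). Gabarapl1 rose by 0.19 ± 0.073 (edgeR, adjusted p = 0.0299), a call lost without ESC replicate 1 at 0.10, without control replicate 1 or 3 at 0.195 and 0.18, with only these groups in the fit at 0.19 and with the collagen score at 0.061 (edgeR, adjusted p = 0.199, 0.0555, 0.0761, 0.0831 and 0.6). Gabarap and Gabarapl2 were at 0.097 ± 0.068 and 0.032 ± 0.071, short of the threshold (edgeR, adjusted p = 0.21 and 0.703), and Gabarapl2 was at -0.03 with the collagen score and at -0.001 without ESC replicate 1. Without ESC replicate 3 the changes were 1.57 for Map1lc3a, -0.33 for Map1lc3b, 0.24 for Gabarapl1, 0.076 for Gabarap and 0.086 for Gabarapl2, and the same 3 genes passed.

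Day 4 control cells had 2 genes higher and 3 lower than the ESC libraries, against 36.2% and 35.6% of all tested genes. Map1lc3b fell by 0.74 ± 0.066 and Gabarapl2 by 0.61 ± 0.072, while Gabarap rose by 0.32 ± 0.068 (edgeR, adjusted p = 4.08e-08, 1.09e-06 and 0.000443), and by 0.55 with the collagen score. Gabarapl1 fell by 0.24 ± 0.074 (edgeR, adjusted p = 0.00925), but not with only these groups in the fit (-0.23, edgeR adjusted p = 0.0678), with upper quartile scaling (-0.15, edgeR adjusted p = 0.0872) or with a stricter filter (-0.13, edgeR adjusted p = 0.108), while with the collagen score it passed at -0.53. Map1lc3a rose by 0.53 ± 0.212 (edgeR, adjusted p = 0.035) with groups that overlapped, and lost the call without ESC replicate 2 at 0.50, without ESC replicate 3 at 0.45 and without control replicate 3 at 0.19 (edgeR, adjusted p = 0.085, 0.0589 and 0.364). It was also lost with only these groups in the fit at 0.53, and with the collagen score at 1.14 (edgeR, adjusted p = 0.0777 and 0.0715). Without ESC replicate 3 the other changes were -0.70 for Map1lc3b, -0.55 for Gabarapl2, 0.30 for Gabarap and -0.19 for Gabarapl1, and these 4 genes passed. Scaled to the sum of counts per length, Gabarapl1 had means of 86.1 ± 9.42 in ESCs and 89.2 ± 2.52 in day 4 control cells (SD). That difference, of the opposite direction, was not tested.

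Ranked over all 5 groups by mean CPM, Map1lc3b had the order ESC, day 2 KO, day 2 control, day 4 control and day 4 KO, and no neighbours overlapped. Gabarapl1 ran day 2 KO, day 2 control, ESC, day 4 control and day 4 KO, with overlap between the first pair. Gabarapl2 ran day 2 control, ESC, day 2 KO, day 4 KO and day 4 control, again with overlap in the first pair. For Map1lc3a, day 2 control cells stood above the rest, and each later pair of neighbours overlapped. For Gabarap, day 4 and day 2 control cells were the neighbours without overlap. These orders hold for CPM. Scaled to the sum of counts per length, the mean of Map1lc3b was higher in day 2 KO cells than in ESCs. That of Gabarapl1 was higher in day 4 control cells than in ESCs. The ratio of the highest to the lowest group mean was 3.15 for Map1lc3a, 1.97 for Map1lc3b, 1.31 for Gabarap, 1.98 for Gabarapl1 and 1.56 for Gabarapl2.

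Levels of different genes were compared only per length, as CPM per kilobase of summed exons. Gabarapl2 was the highest of the family in 15 of 15 libraries, also by coding length and by the length of the principal transcript. It made up 43.4% ± 1.85 of the family's summed level in KO cells and 39.4% ± 1.18 in control cells at day 4, 41.6% ± 0.557 in KO cells and 42.4% ± 2.39 in control cells at day 2, and 50.8% ± 1.61 in ESCs (SD, n = 3 each). The place of Map1lc3b depended on the length, since its summed exons have 7517 bases and its principal transcript has 2532. It was the lowest of the 5 in ESCs by summed exons at 16.0 CPM per kilobase, and the second by its principal transcript at 47.4 CPM per kilobase. By summed exons the whole family had 182.4 ± 9.03 CPM per kilobase in KO cells and 214.9 ± 4.58 CPM per kilobase in control cells at day 2, and these did not overlap. At day 4 it had 160.2 ± 2.2 CPM per kilobase in KO cells and 148.6 ± 16.3 CPM per kilobase in control cells, with overlap. The LC3 genes gave 22.1% ± 2.41 of the sum in KO cells and 29.8% ± 3.17 in control cells at day 2, and 24.1% ± 1.1 in KO cells and 22.1% ± 3.47 in control cells at day 4. At day 4 the order of these shares depended on the length, being 22.6% in KO cells and 23.6% in control cells by coding length. Coding length was that of the longest annotated reading frame, which has 522 bases in Map1lc3b, where that of its principal transcript has 378. The other members have the same value for both. A coding length of 378 bases would give higher LC3 shares and was not used. At day 2 the shares by coding length were 25.4% in KO cells and 27.2% in control cells, closer together than by summed exons. These sums were described and not tested.

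**Figure D4:**
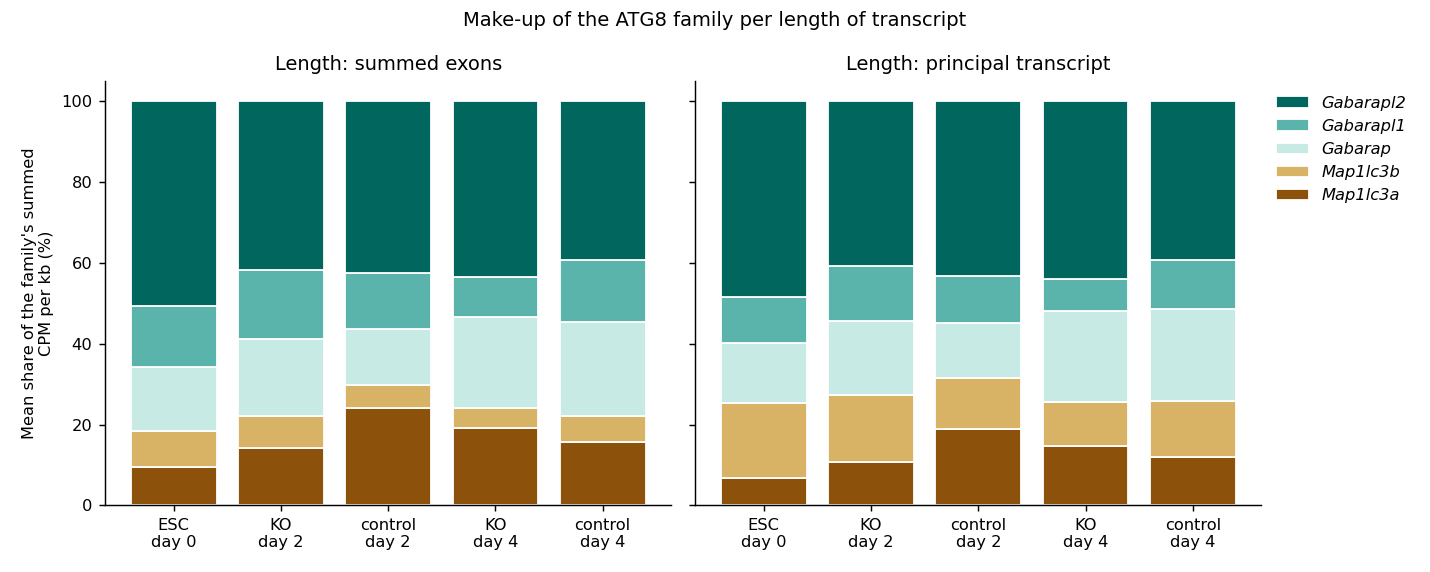
Share of each ATG8 family gene in the family's summed level (CPM per kilobase), in percent, as the mean of the 3 libraries of each group. The left panel is by summed exons and the right panel by the length of the principal transcript. Gabarapl2 takes the largest share in each group, between 39.4% in day 4 control cells and 50.8% in ESCs by summed exons. By principal transcript its share lies between 39.2% and 48.4% in the same groups.

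The genes nearest to each member in their course over the 15 libraries were found by the root mean square difference of centred log2 CPM among 10540 genes with a mean of at least 5 CPM. For Map1lc3a these were Hspb1, Grasp and Sap30l, at 0.24, 0.24 and 0.25. For Map1lc3b they were Rpl3, Npc2 and Rpl7a, at 0.059, 0.091 and 0.098. The nearest to Gabarap were Nfatc3, Esyt2 and Chtf8, at 0.082, 0.083 and 0.084. Chmp2a, Stat6 and Hsd3b7 were nearest to Gabarapl1, at 0.097, 0.10 and 0.11, and Coa3, Rnf10 and Clptm1 to Gabarapl2, at 0.077, 0.085 and 0.085. Within the family the nearest pair was Map1lc3b and Gabarapl1, at 0.23, and the farthest was the LC3 pair Map1lc3a and Map1lc3b, at 0.78.

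The rest of the pathway was read from 5 lists with 88 genes, all of them tested. The counts of each list can be read against all tested genes, of which 20.4% were higher and 21.4% lower in KO cells at day 2, and 19.5% higher and 18.1% lower at day 4. Of the 11 conjugation and processing genes, 4 were higher and 3 lower in KO cells at day 2, and 2 were higher and 4 lower at day 4. Atg7 is among the lower ones at both days. Atg12, the other ubiquitin-like protein of the system, rose by 0.63 ± 0.064 at day 2 and fell by 0.40 ± 0.066 at day 4, with adjusted p-values of 2.17e-06 and 0.000191 by edgeR. It lies on chromosome 18, whose median log2 fold change was 0.56 at day 2 and 0.014 at day 4. Atg4b, which codes for an ATG8 protease, rose by 0.28 ± 0.063 at day 2, and Atg5, the partner of ATG12, fell by 0.35 ± 0.062 at day 4, with adjusted p-values of 0.00215 and 0.000347 by edgeR.

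Of the 18 ATG8-binding cargo receptors, 5 were higher and 4 lower at day 2, and 5 were higher and 7 lower at day 4. Bnip3, a mitophagy receptor, had 15.1 ± 3.17 CPM in KO cells and 151.9 ± 73.5 CPM in control cells at day 4 and fell by 3.33 ± 0.286 (edgeR, adjusted p = 4.55e-07). Sqstm1, the gene of the ubiquitin-binding receptor p62, had 203.2 ± 3.61 CPM in KO cells and 172.3 ± 7.05 CPM in control cells at day 2, and 213.8 ± 6.55 CPM in KO cells and 298.8 ± 11.3 CPM in control cells at day 4. It rose by 0.24 ± 0.05 at day 2 and fell by 0.48 ± 0.05 at day 4, with adjusted p-values of 0.00139 and 2.86e-06 by edgeR, the same signs as Map1lc3b. Tax1bp1, another ubiquitin-binding receptor, rose by 0.66 ± 0.059 at day 2, and Wdfy3, which codes for the aggrephagy adaptor ALFY, rose by 0.73 ± 0.079 at day 4 (edgeR, adjusted p = 5.92e-07 and 3.76e-06).

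Of the 18 ATG8-binding fusion and transport factors, 4 were higher and 3 lower at day 2, and 4 were higher and 5 lower at day 4. Trp53inp2, whose protein binds ATG8 proteins and shuttles LC3 out of the nucleus, had 54.1 ± 2.43 CPM in KO cells and 74.8 ± 2.61 CPM in control cells at day 2, and 48.6 ± 1.81 CPM in KO cells and 27.0 ± 3.04 CPM in control cells at day 4. It fell by 0.47 ± 0.072 at day 2 and rose by 0.84 ± 0.077 at day 4 (edgeR, adjusted p = 0.000102 and 8.09e-07), the same signs as Gabarapl2. Tecpr1, which codes for a factor of autophagosome and lysosome fusion, rose by 0.63 ± 0.079 at day 4, and Fyco1, the gene of an adaptor to kinesin, rose by 0.43 ± 0.083 at day 2 (edgeR, adjusted p = 1.54e-05 and 0.000691). Epg5, a tether gene on chromosome 18, rose by 0.52 ± 0.073 and 0.47 ± 0.075 at day 2 and day 4 (edgeR, adjusted p = 4.25e-05 and 0.000135).

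Of the 23 initiation and phosphoinositide genes, 4 were higher and 3 lower at day 2, and 6 were higher and 6 lower at day 4. Uvrag, a partner of the lipid kinase VPS34, fell by 0.53 ± 0.085 at day 2, and Atg101, of the ULK1 complex, fell by 0.46 ± 0.073 at day 4, with adjusted p-values of 0.000143 and 0.000131 by edgeR. Atg2a, which codes for a lipid transfer protein, rose by 0.43 ± 0.063 at day 4 (edgeR, adjusted p = 6.45e-05). Pik3c3, the VPS34 gene and also on chromosome 18, rose by 0.595 ± 0.062 at day 2 and fell by 0.17 ± 0.063 at day 4, with adjusted p-values of 2.52e-06 and 0.0384 by edgeR.

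Of the 18 transcription factors reported to act on autophagy genes, 4 were higher and 1 was lower at day 2, and 6 were higher and 2 lower at day 4. Mitf, a relative of TFEB, had 19.1 ± 0.961 CPM in KO cells and 8.96 ± 0.746 CPM in control cells at day 2 and rose by 1.09 ± 0.119 (edgeR, adjusted p = 3.94e-06). Atf4, the main factor of the integrated stress response, rose by 0.80 ± 0.121 at day 2 and by 0.86 ± 0.121 at day 4 (edgeR, adjusted p = 7.85e-05 and 4.53e-05). Usf2, a factor of the E-box, rose by 0.71 ± 0.08 at day 4 (edgeR, adjusted p = 6.26e-06). The median log2 fold changes of the 5 lists lay between 0.005 and 0.057 at day 2 and between -0.16 and 0.18 at day 4.

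**Figure D5:**
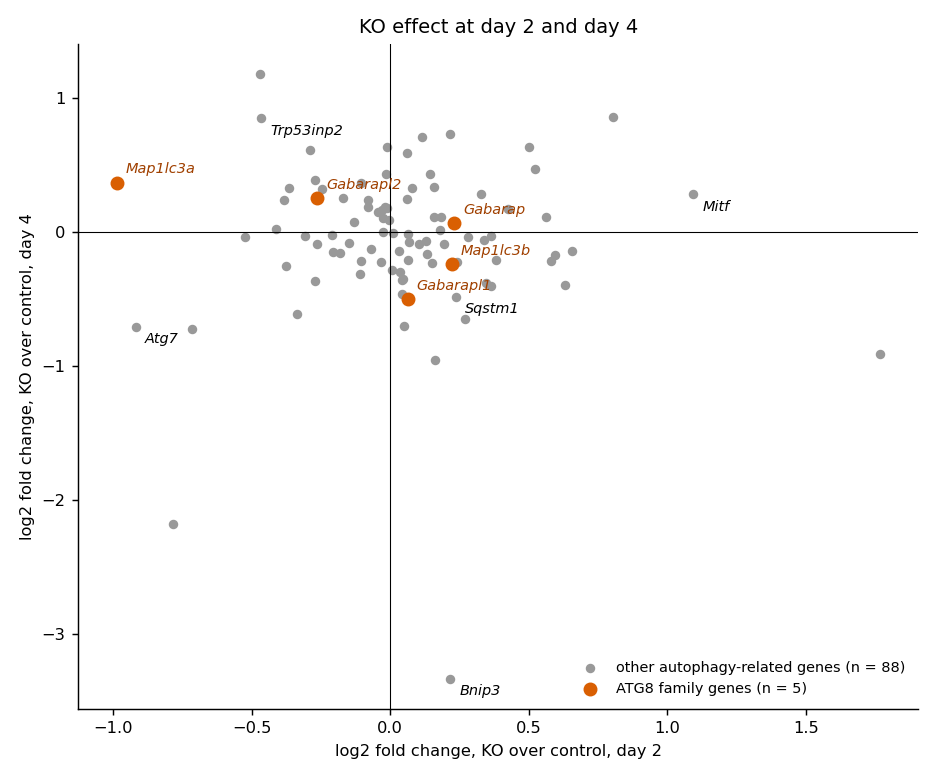
Log2 fold change of Atg7 KO over control cells at day 2 (x axis) against day 4 (y axis) for the 5 ATG8 family genes and 88 other autophagy-related genes, 1 dot per gene. Map1lc3a lies farthest left of all dots at -0.99, the other ATG8 genes lie near the centre, and Bnip3 is lowest on the y axis at -3.33.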

How the data were processed

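RNA-seq was measured in 15 libraries, which were grouped by their titles. Each table holds the raw counts that the authors deposited for a library, by gene symbol. The submitters' processing notes name STAR, featureCounts, StringTie and DESeq2 and the builds mm10 and GRCm38. Versions, settings and strandedness were not stated there.

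The counts were analysed in R 4.3.3 with the quasi-likelihood test of edgeR 4.0.16. The function filterByExpr (min.count 10, min.total.count 15) left 15696 of 24982 genes. All libraries, scaled by TMM, entered 1 model with the 5 groups as its terms, and p-values were adjusted by Benjamini-Hochberg over all tested genes. The procedure was tested on simulated data. Libraries of a group differed by more than sampling noise (chi-square over its degrees of freedom from 3.2 to 31.78, with the highest values for ESC replicate 3), so each was counted as 1 sample.

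The members, the lists and the tests were chosen with earlier results of these data known. Named genes are all 5 members, Atg7, the 3 nearest genes of each member with a named symbol and not on chromosome 18, and up to 4 genes of each pathway list with the smallest p among those past the test at either day. Of the genes and sequences so chosen, 2 items are not reported here. Hprt and Fgf5 were named after their values were seen. Annotation and coding sequences are from GENCODE M21 on GRCm38, and promoters are from RefSeq. Alternatives were DESeq2 1.42.0, scaling by RLE or upper quartile, a fit of all genes with a count and a stricter filter (10 CPM or more in 3 or more libraries). Others were the compared groups alone, a replicate block, a collagen score, chromosome 18 left out and each library left out in turn. Levels were also taken by coding length and scaled to the sum of counts per length over genes with a length. Added after seeing the data were the principal transcript length and a 13-library fit that drops ESC replicate 3 and the second KO library of day 2.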

Additional observations from a re-analysis of the deposited data

Results flagged for a closer look

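For 4 genes the KO effect differed between the days by the test of the difference itself. The day 4 effect minus the day 2 effect was 1.35 for Map1lc3a and 0.52 for Gabarapl2, against -0.46 for Map1lc3b and -0.56 for Gabarapl1. The median difference on chromosome 6, which holds Gabarapl1, was -0.17. Fibroblast marker sums were higher in KO than in control libraries at both days, though some markers of the list were lower. With the collagen score as a covariate the differences were 1.33, 0.52, -0.46 and -0.55 in the same order of genes. The slope of that score rests largely on the ESC libraries, so these values cannot decide the part of fibroblast RNA. Sums of the naive ESC list were also higher in KO cells at both days, at day 2 mostly through Nanog and with Pou5f1, Esrrb and Tbx3 slightly lower. The part of these sums in the differences was not tested.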

How the results depend on the processing

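Of the changes of members that passed the test, 419 values under alternatives kept direction and call and 21 kept direction alone. Of those that did not pass, 144 kept direction and side, 3 passed the test and 3 changed sign. The 3 were Gabarap in KO against control cells at day 4 with the collagen score (-0.01), Gabarapl2 in day 2 control cells against ESCs with that score (-0.03), and the same without 1 ESC library, where its values ran from -0.001 to 0.086. With only the groups compared, 3 of the 5 members passed for day 4 control cells against ESCs. Leaving out each library in turn gave 2 to 4 called members in KO against control cells at day 2, with 2 without control replicate 3 or KO replicate 2. The LC3 share of the family by the longest coding length was 22.6% in KO and 23.6% in control cells at day 4. At day 2 it was 25.4% in KO and 27.2% in control cells, and in ESCs it was 24.4%. By principal transcript it was 25.7% in KO and 25.8% in control cells at day 4, 27.3% in KO and 31.4% in control cells at day 2, and 25.4% in ESCs. In the fit of 13 libraries 4 of the 5 members passed for day 4 control cells against ESCs, and the counts called in KO against control cells were 4 at day 2 and 3 at day 4. With the collagen score, 7113 of all genes passed for day 4 control cells against ESCs, where 11257 did without it. Over 30 pairs, libraries of one replicate number did not vary together (correlations from -0.095 to 0.081). No pairing by number was thus seen, though these values cannot show that no culture or batch was shared. With the replicate block the members called stayed at 4 in KO against control cells at day 2 and 3 at day 4. Causes of these shifts were not tested. With 261 counts in the lowest library, Map1lc3a has the widest counting error of the family.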
